A study of Mus musculus with 38 samples.

Results

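Anp32a was the gene with the smallest p-value when cortical collecting ducts of β-catenin mutant and wild-type mice were compared, and it is described here with 9 other genes: its relatives Anp32b and Anp32e, Commd1 and its near copy Commd1b, S100a14, Ctla2a, Dus4l, Ube2e1 and Gnb4. The genes were selected on measured values, since most of them head the list of differences between the genotypes, and Anp32b, Anp32e and Commd1 were added as the closest relatives of a listed gene. These 10 genes are 10 of the 55416 in the table. The differences between genotypes below are therefore descriptions without a test. The tests concern dDAVP infusion, a contrast not used to choose the members, and the genes around the members. The latter were tested in the same genotypes and libraries that gave the members, and their lists were chosen with earlier results known.

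β-catenin holds cadherins to the cytoskeleton at cell junctions, and in the nucleus it is the co-activator that TCF/LEF factors need to switch on Wnt target genes. In the collecting duct, vasopressin acts on the V2 receptor, Gs, cyclic AMP and protein kinase A (PKA), and principal cells then make more aquaporin-2 and move it to the apical membrane. Serine 552 of β-catenin is phosphorylated by PKA, which links the hormone's kinase to this protein.

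The members have different roles. ANP32 proteins are acidic, leucine-rich nuclear proteins. ANP32A inhibits protein phosphatase 2A and masks histone tails from acetylation, ANP32B is a histone chaperone, and ANP32E removes the histone variant H2A.Z from chromatin. COMMD1 acts in copper export, in ending NF-κB signalling and in endosomal recycling, and it lowers the surface amount of the epithelial sodium channel. S100A14 is an EF-hand protein of the S100 family, CTLA2A is an inhibitor of cathepsin-like cysteine proteases, and DUS4L belongs to the enzymes that make dihydrouridine in transfer RNA. UBE2E1 is a ubiquitin-conjugating enzyme, and GNB4 is a β subunit of heterotrimeric G proteins.

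RNA was measured by RNA-seq in microdissected cortical collecting ducts of mouse kidney. The MT group carries a mutation of the PKA site S552 of β-catenin and the WT group does not, with 4 numbered units in each group and 3 libraries in each unit, which gives 12 MT and 12 WT libraries. Only the titles separate the genotypes. The sample annotations list all 24 as C57BL/6 wild type given dDAVP for 5 days, the deposited table is named as without vasopressin, and the sources used here do not settle which holds. They also do not say that a unit is 1 animal, what residue replaces the serine, or in which cells the mutation is present, and they give no age. In a separate RNA-seq table, 4 wild-type C57BL/6 libraries from 5 days of dDAVP infusion are set against 4 from saline infusion, and an ATAC-seq table holds the means of 3 dDAVP and 3 saline libraries. dDAVP (desmopressin) is a vasopressin analogue selective for the V2 receptor.

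Expression is given in TPM (an abundance per transcript length, scaled to the same total in every library). This unit removes sequencing depth, so the depth behind each value is unknown. Between 13556 and 16050 genes were above 1 TPM in each of the 24 libraries. Ctnnb1, the gene of β-catenin, averaged 383.28 ± 16.65 TPM in MT units and 387.07 ± 11.9 TPM in WT units (SD, n = 4 each), and since the mutation changes the protein, this level does not check the labels. Libraries of a unit were hardly more alike than libraries of different units of a genotype, with a median r of 0.964 within units and 0.959 between units. The closest library of 10 of the 24 came from its own unit. Principal cell markers summed to 27200 to 45989.4 TPM in MT libraries and 23057.6 to 55307.9 TPM in WT libraries, and the labelled duct type therefore shows its defining genes. Markers of neighbouring proximal tubule summed to 6.1 to 881.5 TPM in MT libraries and 7.8 to 1737.3 TPM in WT libraries, and those of thick ascending limb to 30.5 to 349.6 TPM in MT libraries and 35.9 to 3239.1 TPM in WT libraries.

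The start regions of 5 members are shown first, because they set Anp32a beside its relatives, whose levels did not follow it, and show the starts of Dus4l and Ctla2a, 2 further genes that were lower in MT. Each sequence runs from 250 bases before to 50 bases after an annotated start and is taken from RefSeq (GRCm38.p6), 5′ to 3′ on the gene's own strand. Capitals mark CCAAT, the core of the CCAAT box, and TGACG, the short core of the cyclic AMP response element, found on either strand, so that ATTGG and CGTCA are the same motifs read on the other strand. The regions are Anp32a at chr9:62341093-62341392 on the plus strand, Anp32b at chr4:46450676-46450975 on the plus strand, Anp32e at chr3:95929007-95929306 on the plus strand, Dus4l at chr12:31654777-31655076 on the minus strand, and Ctla2a at chr13:60936576-60936875 on the minus strand.
Anp32a: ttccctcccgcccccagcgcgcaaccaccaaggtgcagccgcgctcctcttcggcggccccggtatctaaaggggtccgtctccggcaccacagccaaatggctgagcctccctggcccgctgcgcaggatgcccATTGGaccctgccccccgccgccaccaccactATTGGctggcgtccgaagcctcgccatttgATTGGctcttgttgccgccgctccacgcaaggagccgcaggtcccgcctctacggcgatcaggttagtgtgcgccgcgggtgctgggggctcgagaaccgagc
Anp32b: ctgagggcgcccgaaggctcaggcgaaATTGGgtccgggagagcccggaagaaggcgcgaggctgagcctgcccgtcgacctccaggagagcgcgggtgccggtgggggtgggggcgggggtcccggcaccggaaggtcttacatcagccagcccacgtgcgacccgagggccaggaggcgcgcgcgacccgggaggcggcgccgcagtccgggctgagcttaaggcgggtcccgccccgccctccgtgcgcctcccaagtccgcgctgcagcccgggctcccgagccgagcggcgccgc
Anp32e: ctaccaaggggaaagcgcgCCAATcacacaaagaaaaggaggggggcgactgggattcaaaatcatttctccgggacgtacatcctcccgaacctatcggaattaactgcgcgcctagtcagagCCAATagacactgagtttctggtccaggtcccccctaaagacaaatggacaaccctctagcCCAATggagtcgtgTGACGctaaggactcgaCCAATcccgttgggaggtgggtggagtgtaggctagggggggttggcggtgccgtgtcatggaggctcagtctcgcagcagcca
Dus4l: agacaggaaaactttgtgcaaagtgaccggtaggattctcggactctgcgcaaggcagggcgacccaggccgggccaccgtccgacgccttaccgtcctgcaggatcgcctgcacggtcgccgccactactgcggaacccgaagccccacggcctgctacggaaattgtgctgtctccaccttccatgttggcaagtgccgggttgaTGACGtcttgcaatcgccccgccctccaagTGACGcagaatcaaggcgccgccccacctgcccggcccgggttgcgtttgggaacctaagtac
Ctla2a: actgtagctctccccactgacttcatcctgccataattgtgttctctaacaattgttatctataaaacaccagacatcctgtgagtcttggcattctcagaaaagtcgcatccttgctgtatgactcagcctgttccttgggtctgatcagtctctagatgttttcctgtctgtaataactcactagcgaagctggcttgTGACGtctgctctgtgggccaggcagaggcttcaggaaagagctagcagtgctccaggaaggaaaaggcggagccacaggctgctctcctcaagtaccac

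The Anp32a region held 3 CCAAT matches, all on the minus strand, the Anp32e region held 4, all on the plus strand, and the Anp32b region held 1. The motif was present in each of these regions, and its bearing on the levels of the genes was not tested. CCAAT was present in 37.4% of the 32851 start regions in the RefSeq table. TGACG occurred 2 times in the Dus4l region and 1 time each in those of Anp32e and Ctla2a, against 20.8% of all start regions with a match, and it was not found in those of Anp32a and Anp32b. The letters CTTTGA, a core of TCF/LEF sites present in 16.0% of all regions, were found among the 7 members with a region only at Commd1. The related CTTTGT, present in 18.7% of all regions, was found at Anp32e and Dus4l. S100a14, Gnb4 and Commd1b have no region in the table. Anp32a itself has 68.7% G and C bases in this window, Anp32b 76.3%, Anp32e 56.3%, Dus4l 63.0% and Ctla2a 49.0%, beside a median of 52.7% over all start regions.

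In the comparison of genotypes, limma with Benjamini-Hochberg adjustment called 0 of 15013 genes tested, or 0.0%, and 683 genes had an unadjusted p below 0.05. No gene list or neighbour described below could therefore hold a called gene. That none of them passed repeats this result, and it does not show that a pathway was unchanged. A fit over all 24 libraries with an estimated correlation within units called 1 gene, Anp32a. Since Anp32a was selected on this same contrast, the call is not a test of it. The 4 MT units lay above the 4 WT units for 1.86% of genes and below them for 1.17%. Among the members, 3 were higher in MT without overlap of the units (Commd1b, S100a14 and Ube2e1), 4 were lower without overlap (Anp32a, Ctla2a, Dus4l and Gnb4), and 3 overlapped (Anp32b, Anp32e and Commd1). These counts follow from the selection, and nothing is read from them. The median difference of the 10 members was -0.04 on the log2(TPM + 1) scale, beside 0.01 over all genes tested.

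Of the 10 genes with the smallest p-values, 7 are members. Anp32a stood at rank 1, S100a14 at 2, Ctla2a at 3, Commd1b at 4, Ube2e1 at 5, Dus4l at 8 and Gnb4 at 9. The ranks between and after them belong to a predicted gene, to Mthfd2l with 64.28 TPM in MT and 50.92 TPM in WT units, and to Aurkb with 4.34 TPM in MT and 2.02 TPM in WT units. The plot of differences against level shows that many genes of low level differed by more than the members.

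**Figure D1:**
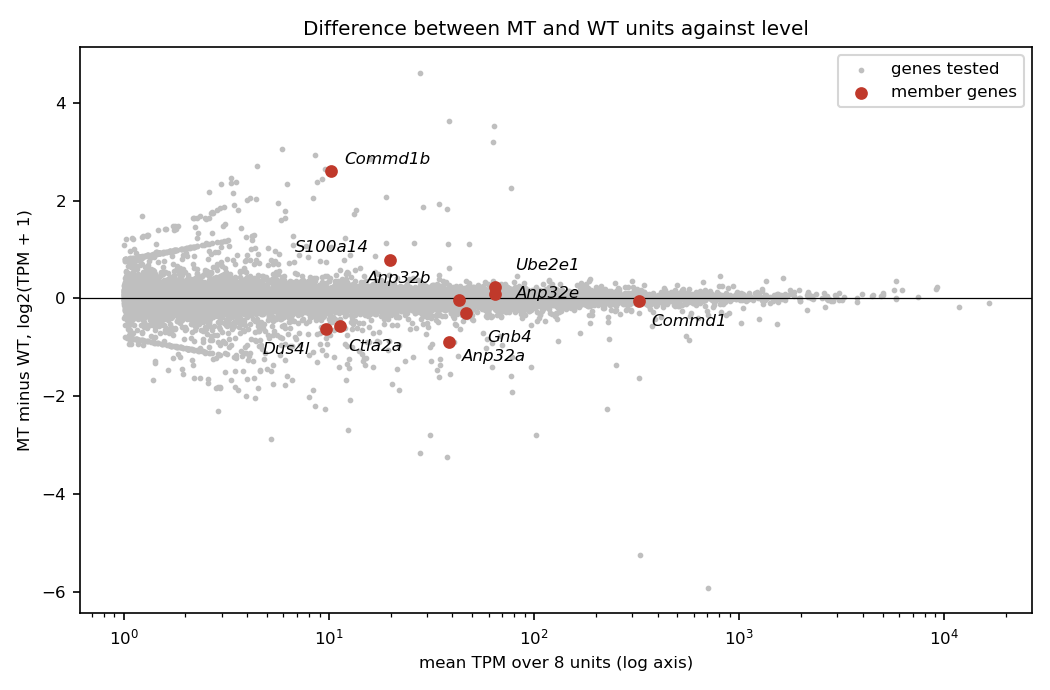
The difference between 4 MT and 4 WT units on the log2(TPM + 1) scale is plotted against mean TPM on a log axis, for 15013 genes (grey) and the 10 members (red). Commd1b lies at 2.61 and Anp32a at -0.90, while Anp32b, Anp32e and Commd1 lie near 0.

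Anp32a had about 0.529 times the wild-type level in mutant ducts. Its libraries ran from 18.57 TPM through a median of 27.0 to 34.01 TPM in MT, and from 31.54 TPM through 49.7 to 66.38 TPM in WT. In 10 of 12 MT libraries it was below every WT library, and 1 WT library, the second of unit 1, fell under the highest MT library. The MT units had 29.74, 28.58, 26.69 and 21.78 TPM, and the WT units 44.26, 48.16, 55.02 and 54.66 TPM. Unit means were 26.7 ± 3.51 TPM in MT and 50.52 ± 5.23 TPM in WT (SD, n = 4 each), a log2 difference of -0.90 (SE 0.11). The libraries of a unit scattered by an SD of 0.23 on that scale, so this difference was 3.96 times the scatter, the largest such ratio among the members.

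The relatives of Anp32a differed by less than the spread between units. Anp32b ran from 38.08 through 41.89 to 48.29 TPM in MT libraries and from 38.97 through 42.86 to 47.24 TPM in WT libraries, a log2 difference of -0.03 (SE 0.05). Anp32e ran from 59.9 through 64.44 to 75.09 TPM in MT libraries and from 42.15 through 64.47 to 74.23 TPM in WT libraries, a log2 difference of 0.09 (SE 0.08). Units overlapped for both genes. By TPM, which is per length, Anp32e was the most abundant of the family in MT units at 66.06 TPM, followed by Anp32b at 42.44 TPM and Anp32a at 26.7 TPM. In WT units Anp32e had 62.37 TPM, Anp32a 50.52 TPM and Anp32b 43.33 TPM. The order of Anp32a and Anp32b thus differed between the genotypes, and in WT their ranges of libraries overlapped. Within genotypes, Anp32a and Anp32b varied together only weakly over the 24 libraries (r = 0.28), and Anp32a and Anp32e did not (r = 0.00).

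Genes that work with ANP32 proteins, or that ANP32A acts on, included no called gene, as was so for all genes tested. None of 13 tested genes of histone chaperones and ANP32 partners, and none of 11 subunits of protein phosphatase 2A, passed limma's adjusted threshold in either direction, and their median log2 differences were 0.03 and 0.03. Single differences ran from -0.42 to 0.37 in the first list and from -0.31 to 0.11 in the second. Ppp2r1a, the scaffold subunit of the phosphatase, had 363.74 TPM in MT and 358.83 TPM in WT units. Ppp2r5a, a regulatory subunit, had 93.95 TPM in MT and 113.84 TPM in WT units, with overlapping units (adjusted p = 0.969, limma). Npm1, a nucleolar histone chaperone, had 106.47 TPM in MT and 102.89 TPM in WT units. Anp32a lies on chromosome 9, as Ctnnb1 does, at a distance of 58.6 Mb. The expressed genes on either side of Anp32a differed little: Glce had 10.39 TPM in MT and 9.62 TPM in WT units, and Coro2b 1.78 TPM in MT and 1.83 TPM in WT units. Beside Anp32b lie Trmo, with 12.0 TPM in MT and 13.57 TPM in WT units, and the predicted gene Gm22247, which averaged 7.97 TPM in MT units and was listed at 0 in WT units. Beside Anp32e lie Car14, with 1.96 TPM in MT and 2.72 TPM in WT units, and Plekho1, with 1.82 TPM in MT and 2.23 TPM in WT units. Units of the genotypes overlapped for all of these neighbours, and none passed.

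**Figure D2:**
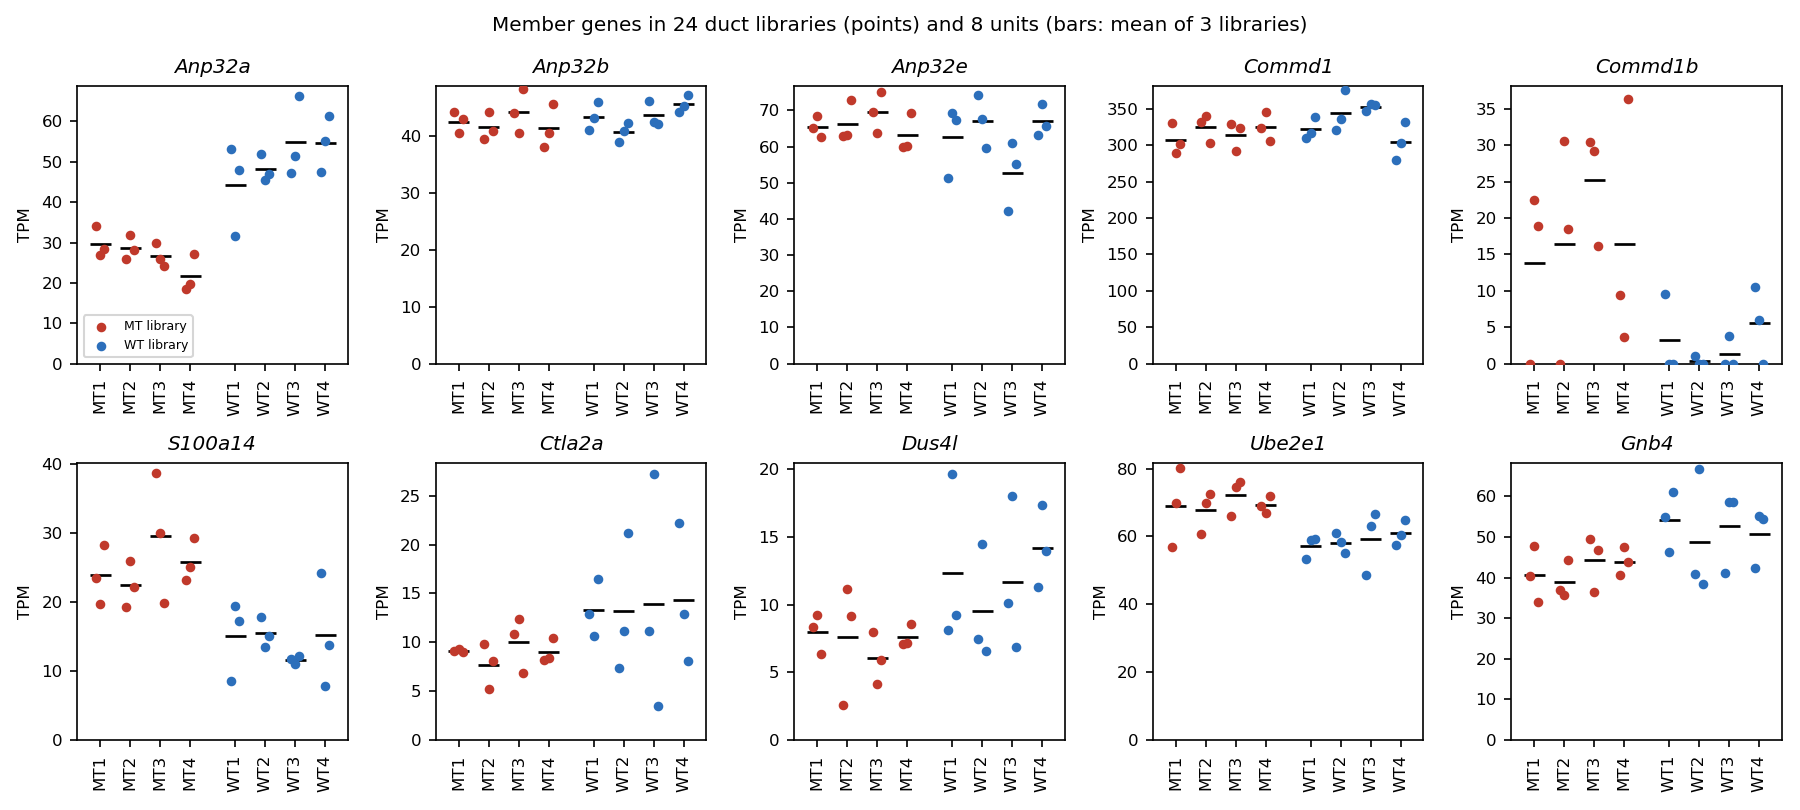
TPM of each member gene is plotted for the 3 libraries (points) and the mean (bar) of each unit, MT units in red on the left and WT units in blue on the right. Anp32a units lie between 21.78 and 29.74 TPM in MT and between 44.26 and 55.02 TPM in WT, and the points of Ctla2a and Dus4l spread far more within units than their bars do between units.

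Commd1b was above 0 in 10 of 12 MT libraries and in 6 of 12 WT libraries. The 3 libraries of each MT unit had 0, 22.45 and 18.95 TPM in unit 1, 0, 30.64 and 18.43 TPM in unit 2, 30.48, 29.16 and 16.2 TPM in unit 3, and 9.4, 3.69 and 36.31 TPM in unit 4. Those of the WT units had 9.55, 0 and 0 TPM in unit 1, 1.08, 0.01 and 0 TPM in unit 2, 0, 3.79 and 0 TPM in unit 3, and 10.56, 6 and 0 TPM in unit 4. It was below 1 TPM in 2 MT libraries and 7 WT libraries, and 8 MT libraries were above every WT library. The log2 difference of 2.61 (SE 0.45) rests on the added 1 TPM, since so many libraries are at 0. The scatter between libraries of a unit, an SD of 1.79, was the widest among the members.

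Commd1 and Commd1b can share reads, because one is a near copy of the other, and how the quantification divided such reads was not tested. Both values are therefore uncertain, and Commd1b more so. Commd1 was by far the more abundant: it ran from 289.58 through 323.12 to 345.88 TPM in MT libraries and from 278.93 through 334.46 to 376.37 TPM in WT libraries, a log2 difference of -0.06 (SE 0.06) with overlapping units. Summed per library, the pair came to 335.81 ± 9.86 TPM in MT units and 333.53 ± 19.73 TPM in WT units (SD, n = 4 each), so the pair together differed by less than the spread between units. Commd1b was 0% to 10.61% of the sum in MT libraries, with a median of 5.83%, and 0% to 3.65% in WT libraries, with a median of 0%. Over the 24 libraries, and after subtracting each genotype's mean, Commd1 was lower where Commd1b was higher (r = -0.57); both are parts of 1 TPM total and may divide the same reads.

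**Figure D3:**
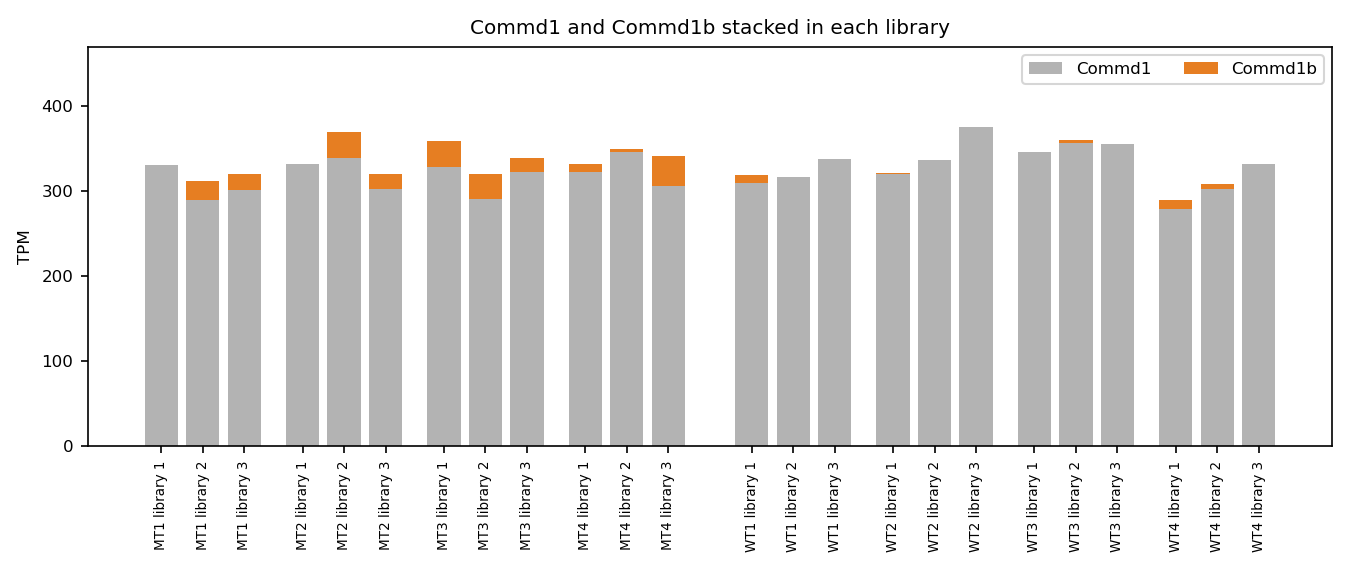
Stacked bars give the TPM of Commd1 (grey) and Commd1b (orange) in each library, MT on the left and WT on the right. The sums run from 312.03 to 370.08 TPM in MT and from 289.49 to 376.37 TPM in WT, and Commd1b is absent from 2 MT and 6 WT bars.

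None of the 9 other COMMD genes passed the threshold (median log2 difference -0.06), nor did any of the 10 tested subunits of the CCC, retriever and WASH complexes in which COMMD proteins work (median -0.01), nor any of 10 genes of copper handling (median 0.01). Commd3 had 188.53 TPM in MT and 193.96 TPM in WT units, and Commd4 143.64 TPM in MT and 157.1 TPM in WT units. Vps29, a subunit of retriever, had 204.15 TPM in MT and 200.42 TPM in WT units. Cox17, a copper chaperone of mitochondria, had 550.1 TPM in MT and 522.59 TPM in WT units. B3gnt2, the expressed gene nearest Commd1 on 1 side, had 68.24 TPM in MT and 82.62 TPM in WT units without overlap (log2 difference -0.27, limma adjusted p = 0.969). Zrsr1, which lies inside Commd1, had 2.26 TPM in MT and 2.66 TPM in WT units, with overlap.

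S100a14 had 1.77 times the wild-type level in mutant ducts. Its libraries ran from 19.33 through 24.3 to 38.71 TPM in MT and from 7.88 through 13.63 to 24.22 TPM in WT. All 12 MT libraries were above the WT median, and 6 were above every WT library. The MT units had 23.88, 22.49, 29.54 and 25.85 TPM, and the WT units 15.11, 15.5, 11.65 and 15.28 TPM, which do not overlap. The means were 25.44 ± 3.06 TPM in MT units and 14.38 ± 1.83 TPM in WT units (SD, n = 4 each), a log2 difference of 0.78 (SE 0.11). Its neighbours in the S100 cluster on chromosome 3 differed little. S100a13, 2268 bases away, had 75.54 TPM in MT and 74.03 TPM in WT units, and S100a16 had 340.84 TPM in MT and 324.47 TPM in WT units. None of 10 other S100 genes tested passed the threshold. S100a1, the most abundant of them, had 2756.83 TPM in MT and 2844.04 TPM in WT units.

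Ctla2a had 0.654 times the wild-type level, but its libraries overlapped widely. They ran from 5.18 through 9.04 to 12.41 TPM in MT and from 3.44 through 12.02 to 27.2 TPM in WT, and both the lowest and the highest WT library belong to unit 3. In MT, 11 of 12 libraries were below the WT median, and none was below every WT library. The MT units had 9.14, 7.68, 10.03 and 9.03 TPM, and the WT units 13.33, 13.24, 13.94 and 14.37 TPM, with a log2 difference of -0.57 (SE 0.08). With the median of a unit's libraries in place of the mean it was -0.37 (SE 0.11). In the fit over all 24 libraries it was -0.43 (SE 0.29). The 4 WT units thus lay close together although their libraries did not. Within genotypes, Ctla2a varied with the endothelial markers. Egfl7, secreted by endothelial cells, was 1 of its 2 most similar named genes over the 24 libraries (r = 0.69 within genotypes). The summed endothelial markers gave r = 0.56, also within genotypes. These markers summed to 175.8 to 429.2 TPM in MT libraries (median 291.4) and 99.5 to 481.0 TPM in WT libraries (median 272.5), and all 12 tested were above 0 in log2 difference, opposite in direction to Ctla2a, with none passing the threshold. No endothelial marker was at 0 in all libraries, and the part of these cells in the result was not tested. In such libraries fewer cells of a type and less RNA per cell cannot be told apart. The expressed genes on either side were Dapk1, with 5.48 TPM in MT and 6.53 TPM in WT units, and Gm7240, a predicted gene with 25.84 TPM in MT and 22.2 TPM in WT units. None of 9 tested cathepsins passed, and no relative of Ctla2a was among the genes tested in this list. Ctsd, a lysosomal protease, had 1957.64 TPM in MT and 1957.71 TPM in WT units, and Ctsb, a cysteine protease, 569.02 TPM in MT and 551.95 TPM in WT units.

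Dus4l had 0.614 times the wild-type level. Its libraries ran from 2.58 through 7.61 to 11.17 TPM in MT and from 6.59 through 10.71 to 19.65 TPM in WT, and 4 MT libraries were below every WT library. The MT units had 7.99, 7.63, 6.03 and 7.63 TPM, and the WT units 12.33, 9.51, 11.67 and 14.22 TPM, with a log2 difference of -0.63 (SE 0.13). With the median of a unit's libraries in place of the mean it was -0.35 (SE 0.20). Cog5, which starts beside Dus4l and overlaps it on the map, had 28.59 TPM in MT and 27.6 TPM in WT units, and Bcap29, on the other side, had 42.31 TPM in MT and 35.9 TPM in WT units. Both overlapped between the genotypes. None of 11 other tRNA dihydrouridine synthases and tRNA modifiers passed the threshold. Dus1l, of the same enzyme family, had 59.62 TPM in MT and 63.28 TPM in WT units, and Nsun2, a tRNA methyltransferase, 74.85 TPM in MT and 72.84 TPM in WT units.

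Ube2e1 differed little in size but evenly. Its libraries ran from 57.02 through 69.94 to 80.21 TPM in MT and from 48.58 through 59.04 to 66.49 TPM in WT, and 9 of 12 MT libraries were above every WT library. The MT units had 69.06, 67.69, 72.23 and 69.32 TPM, and the WT units 57.14, 58.16, 59.37 and 60.89 TPM, a ratio of 1.18 and a log2 difference of 0.24 (SE 0.04). Nkiras1, which overlaps Ube2e1, had 29.61 TPM in MT and 30.74 TPM in WT units. Ube2e2, a paralog that lies next to it, had 57.22 TPM in MT and 53.6 TPM in WT units. Of the 10 related conjugating enzymes and their ligases, none passed, 9 were above 0 in log2 difference and 1 below, and the median was 0.07. Nedd4l, the ligase that marks the epithelial sodium channel for removal, had 326.86 TPM in MT and 321.6 TPM in WT units, and Ube2d3 315.0 TPM in MT and 310.88 TPM in WT units.

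Gnb4 had 0.814 times the wild-type level. Its libraries ran from 33.93 through 42.16 to 49.52 TPM in MT and from 38.53 through 54.63 to 66.72 TPM in WT. All 12 MT libraries were below the WT median, and 4 were below every WT library. The MT units had 40.68, 38.97, 44.25 and 43.97 TPM, and the WT units 54.12, 48.68, 52.74 and 50.7 TPM, a log2 difference of -0.29 (SE 0.06). None of 4 other β subunits, 8 γ subunits and 10 α subunits tested passed the threshold in either direction. Their log2 differences ran from -0.07 to 0.05 for β, from -0.01 to 0.40 for γ and from -0.35 to 0.14 for α subunits, so some were as large as that of Gnb4. Gnai3, named after its values were seen, had 81.98 TPM in MT and 74.44 TPM in WT units without overlap (limma adjusted p = 0.969). Gnb1 had 253.66 TPM in MT and 256.65 TPM in WT units, Gng5 475.38 TPM in MT and 479.28 TPM in WT units, and Gnas, which encodes the Gs subunit of the V2 receptor pathway, 912.27 TPM in MT and 922.15 TPM in WT units. Mfn1, which overlaps Gnb4, had 48.46 TPM in MT and 48.36 TPM in WT units, and Actl6a, on the other side, 65.74 TPM in MT and 64.9 TPM in WT units.

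Several members had units that lay closer together than their libraries. If the 3 libraries of a unit were independent draws, the units would scatter by the scatter within units divided by the square root of 3. For Ctla2a this gives 0.37 on the log2 scale, and the units scattered by 0.11. For Ube2e1 the values were 0.08 and 0.04, for Gnb4 0.14 and 0.08, for Dus4l 0.31 and 0.19, for S100a14 0.23 and 0.17, and for Commd1b 1.04 and 0.74. The scatter of units was the smaller of the pair for 6 of the 10 members, and for 20.3% of all genes tested. For Anp32a it was the larger one, with 0.13 from the libraries and 0.17 between units. The members were selected on small p-values, which favour genes with close units, so this count describes the selected genes only. For these 6 members the SE of the difference was larger in the fit over all 24 libraries than in the fit of units. It was 0.289 for Ctla2a, 0.07 for Ube2e1, 0.118 for Gnb4, 0.256 for Dus4l, 0.19 for S100a14 and 0.844 for Commd1b. For Anp32a the SE in that fit was 0.121.

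The members did not vary as a group. Over the 24 libraries and within genotypes, the highest correlation between 2 members was 0.45, for Anp32e and Ube2e1, and the lowest was -0.57, for Commd1 and Commd1b. The genes most similar to each member also differed: Cul3 and F8a for Anp32a (both r = 0.67), Eef1a1 (0.69) and Slc23a2 (0.68) for Anp32b, Nr2c2ap (0.81) and Nufip2 (0.78) for Anp32e, Sec13 (0.81) and Ift52 (0.78) for Commd1, Malat1 (0.67) and Slc25a46 (0.66) for Commd1b. They were Wdr27 (0.61) and Snx6 (0.58) for S100a14, Pus1 (0.69) beside Egfl7 for Ctla2a, Gphn (0.65) and Cox10 (0.64) for Dus4l, Actr2 (0.69) and Plekhd1 (0.65) for Ube2e1, and Tmem72 (0.75) and Ipcef1 (0.72) for Gnb4. All points share a library's normalisation, and the similar genes were found among 8514 genes of mean TPM 10 or above, so high values arise easily.

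Genes of the pathways around β-catenin and vasopressin were set beside the members. In all, 129 genes of 14 lists were tested and none passed in either direction in limma, or in the fit over 24 libraries. The first fit called no gene at all and the second only Anp32a, so the lists add no separate negative result. Of the 129 genes, 6 were higher and 4 lower in MT at an unadjusted p below 0.05 in limma, beside 683 of all 15013 genes tested. Units did not overlap for Asf1b (log2 difference 0.368), Xiap (0.235), Gnai3 (0.138) and Ube2l3 (0.122), which were higher in MT. The same held for Npm3 (-0.422), which was lower. Over all genes tested, 1.86% were higher and 1.17% lower without overlap. The β-catenin list holds 12 genes, of which 5 were tested. Of these 5, 1 was above 0 in log2 difference and 4 were below, with a median of -0.08 and a range of -0.60 to 0.29. Ctnnb1 itself is 1 of the 4, at -0.015. The gene above 0, Ccnd1, a cyclin and Wnt target, had 136.3 TPM in MT and 108.47 TPM in WT units, with overlap (limma adjusted p = 0.969). The others include Myc, a Wnt target, with 7.54 TPM in MT and 9.26 TPM in WT units, and Znrf3, which removes Wnt receptors, with 4.86 TPM in MT and 7.33 TPM in WT units, both overlapping and both named after their values were seen. Aqp2 had 15649.1 TPM in MT and 17256.9 TPM in WT units (adjusted p = 0.999, limma), and Aqp3, the basolateral water channel, 4502.49 TPM in MT and 4388.25 TPM in WT units. All 9 proximal tubule markers (median log2 difference -1.23) and all 6 thick limb markers (-1.55) were below 0, and none passed. The correlations that follow were taken over the libraries after subtracting each genotype's mean. They describe variation within genotypes and leave out the difference between them. Anp32a correlated with the summed proximal tubule markers at r = 0.00 and with those of the thick limb at r = -0.10. S100a14 gave -0.12 and -0.22, and Commd1b 0.28 and 0.43, with these 2 marker sums. Of the other members lower in MT, Ctla2a gave 0.31 and 0.36, Dus4l 0.06 and 0.04, and Gnb4 -0.02 and 0.15. Over all marker sums, the highest values were 0.56 for Ctla2a with endothelium, 0.5 for Gnb4 with intercalated cells and 0.46 for Dus4l with leukocytes. The lowest was -0.47, for Commd1 with distal convoluted and connecting tubule. The part of these segments and cell types in the members' differences was not tested further.

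The second RNA-seq table asks whether excess vasopressin signalling alters the same genes in wild-type ducts. It lists 5035 genes, each above 10 TPM in every library, and holds 6 of the members. Anp32a, S100a14, Ctla2a and Dus4l are not listed in it. limma with Benjamini-Hochberg adjustment called 35 genes, or 0.695%, and none of the 6 members. No member had an unadjusted p below 0.05 either, while 553 of the 5035 genes did. Among the pathway lists, limma called Aqp2 (log2 fold change 1.59, adjusted p = 0.0028), Aqp3 (1.03, adjusted p = 0.0241) and Ctsh, a cathepsin (1.13, adjusted p = 0.0110), higher with dDAVP. In the list of Aqp2 and Aqp3, 1 gene was called lower. The 4 dDAVP and 4 saline libraries did not overlap for 8.58% of genes, and overlapped for each of the 6 members.

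Gnb4 had 32.5, 32.05, 55.92 and 29.18 TPM in dDAVP libraries and 26.24, 15.01, 25.53 and 38.06 TPM in saline libraries. The log2 fold change was 0.52 (SE 0.33, limma adjusted p = 0.604), with 1 dDAVP library well above the other 3; without that library it was 0.31. Ube2e1 had 60.11, 55.79, 54.31 and 37.16 TPM in dDAVP libraries and 58.86, 57.65, 33.39 and 16.96 TPM in saline libraries. Its log2 fold change was 0.44 (SE 0.39, limma adjusted p = 0.723), and without saline library 4, the lowest of the 8, it was 0.07.

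Commd1 had 399.2, 377.54, 342.31 and 381.36 TPM in dDAVP libraries and 373.75, 377.32, 258.78 and 272.85 TPM in saline libraries (log2 fold change 0.25, SE 0.17, limma adjusted p = 0.645). Commd1b had 33.6, 29.78, 36.95 and 23.66 TPM in dDAVP libraries and 31.45, 41.27, 24.25 and 71.27 TPM in saline libraries (log2 fold change -0.33, SE 0.34, limma adjusted p = 0.762). Without saline library 4, the highest, the fold change was -0.05 on the log2 scale. Commd1b was thus above 23 TPM in all 8 of these wild-type libraries, whereas the WT libraries of the β-catenin table had 10.56 TPM at most. The infusion table lists only genes above 10 TPM in every library, so low values of Commd1b could not appear in it. The tables were also normalised separately, so no test joins them. All 8 were also above 18.69 TPM, the median of the MT libraries. Its share of the summed pair was 5.84% to 9.74% in dDAVP libraries and 7.76% to 20.71% in saline libraries.

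Anp32b had 35.21, 41.86, 40.04 and 45.45 TPM in dDAVP libraries and 46.68, 34.66, 54.55 and 26.85 TPM in saline libraries (log2 fold change 0.04, SE 0.28, limma adjusted p = 0.970). Anp32e had 46.15, 60.66, 24.78 and 18.03 TPM in dDAVP libraries and 49.33, 61.57, 11.4 and 41.38 TPM in saline libraries (log2 fold change -0.05, SE 0.53, limma adjusted p = 0.977). Anp32e varied over a range of more than 3 times within each group, so a moderate response would not be detectable. The authors' deposited table gives the 6 members adjusted p-values of 0.3906 for Gnb4 to 0.9997 for Anp32b and Anp32e.

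**Figure D4:**
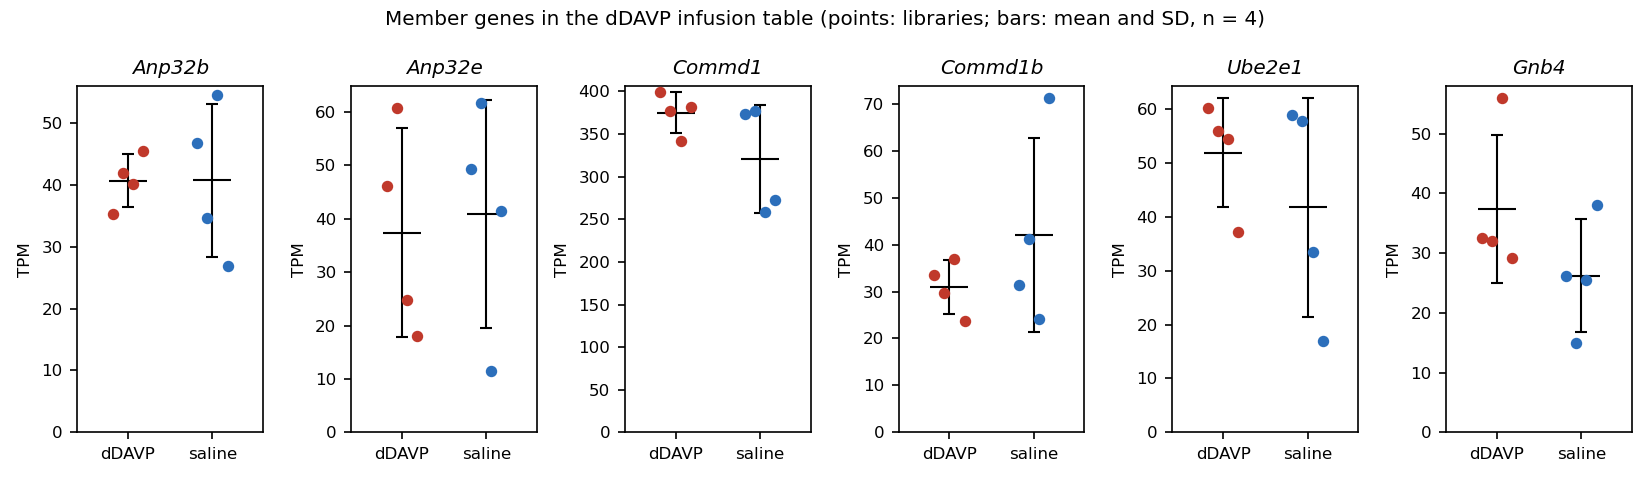
TPM of the 6 members listed in the infusion table is plotted for each library, dDAVP on the left and saline on the right, with the mean and SD (n = 4). The groups overlap for every gene shown, and Commd1b lies between 23.66 and 71.27 TPM in all 8 libraries.

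ATAC-seq measures how open chromatin is, and here the authors' deposited table gives only group means in log2 units, from 3 dDAVP and 3 saline libraries, with their own adjusted p-values on mm10 coordinates. A peak at the start was found for 9 members, by overlap with a RefSeq start region for 7 and by the authors' annotation for S100a14 and Gnb4. In the authors' deposited table, of these 9 peaks 5 were lower with dDAVP at an adjusted p below 0.05, and none was higher. Of all 12407 peaks at RefSeq start regions, 47.1% were called lower, and 61.4% of those with a mean log2 signal of 7 to 9, a range that holds 8 of the members' peaks, 5 of them called. The members' share is near that of start peaks in general. The median log2 fold change was -0.50 for the members' peaks and -0.49 for all start peaks.

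S100a14 had the largest difference. Its peak, at chr3:90525927-90527014, had a log2 signal of 7.27 with dDAVP and 8.25 with saline in the authors' deposited table (log2 fold change -0.86, authors' adjusted p = 0.000547). Ube2e1, with a peak at chr14:18330730-18332145 at its start, had 7.2 with dDAVP and 8.07 with saline (authors' deposited table, adjusted p = 0.00314). Its RNA was not called in the same comparison.

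In the ANP32 family, the authors' deposited table gives Anp32b 8.38 with dDAVP and 9.05 with saline (adjusted p = 0.00751). Anp32a, at chr9:62340911-62341434, had 8.14 with dDAVP and 8.6 with saline (authors' deposited table, adjusted p = 0.198), and Anp32e 8.41 with dDAVP and 8.82 with saline (adjusted p = 0.264). Whether the family members differ from each other was not tested. The authors' deposited table also gives 8.01 with dDAVP and 8.62 with saline for Commd1 (adjusted p = 0.0388), and 7.95 with dDAVP and 8.57 with saline for the Dus4l peak (adjusted p = 0.0387), which also covers the start of Cog5. Gnb4 had 6.93 with dDAVP and 7.36 with saline (authors' deposited table, adjusted p = 0.348). Ctla2a stood apart with a weak peak, 3.25 with dDAVP and 3.37 with saline (authors' deposited table, adjusted p = 0.999).

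Across the bodies of the members there were 86 peaks in the authors' deposited table, of which 11 were called lower and 0 higher, and 5 of the 11 are the start peaks above. Away from start regions, 5 of 74 peaks in the members were called lower and 0 higher, beside 3.93% lower and 0.875% higher among all 256240 such peaks in the authors' deposited table. Of its 24 peaks, Anp32a carried 3 called ones, each in its first intron, with log2 fold changes of -0.67, -0.61 and -0.55, although its start peak was not called. The share over all peaks away from start regions was not matched for signal. ATAC-seq of MT ducts was not analysed here, so these peaks bear on dDAVP alone.

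**Figure D5:**
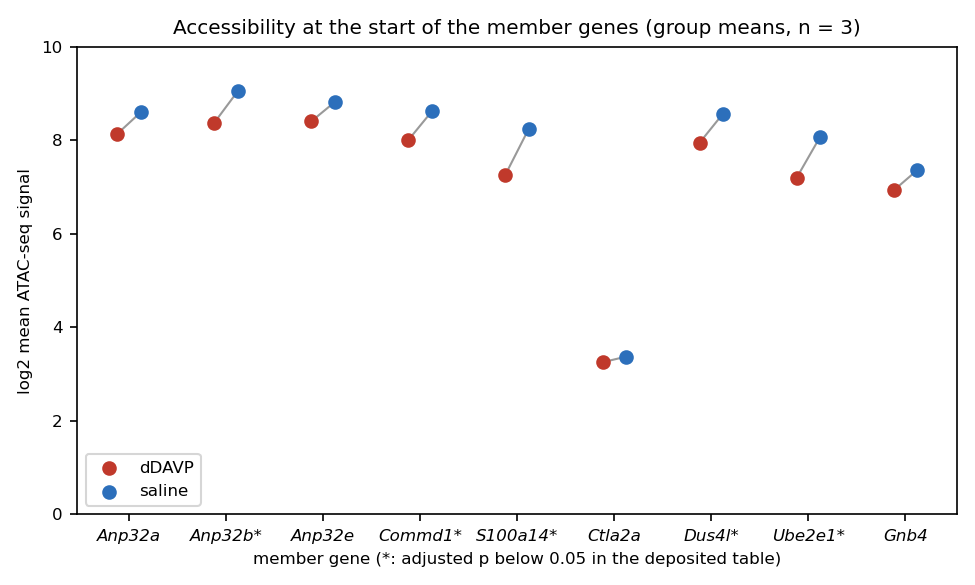
The log2 mean ATAC-seq signal of the peak at the start of 9 members is plotted from the authors' deposited table, dDAVP (red) left of saline (blue), with a star where the authors' adjusted p is below 0.05. Signals run from 6.93 to 9.05 except at Ctla2a, where they are 3.25 with dDAVP and 3.37 with saline.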

How the data were processed

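RNA-seq values are TPM deposited by the authors, made with STAR and RSEM on mm10 per the submitters' processing notes, which give no versions; the labels' protocols name SMARTer amplification of the RNA and Nextera XT libraries. ATAC-seq log2 signals, log2 fold changes and adjusted p-values are the authors' deposited values (cutadapt 3.4, Bowtie2, MACS2 and DiffBind, per the submitters' processing notes). RNA-seq columns of the deposited tables that matched no sample label, 8 in all, were not used.

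From the deposited TPM, the 3 libraries of each unit were averaged, genes with a mean of 1 TPM or more were kept, and log2(TPM + 1) was tested with limma 3.58.1 (R 4.3.3, trended variance, two-sided, Benjamini-Hochberg, threshold 0.05). The infusion table was fitted the same way over its libraries. Replicates are separate libraries or units in the labels, so p-values measure the spread between these samples, which may be technical. The fit was tested on simulated data. Same-numbered samples were not paired, since the correlations of their deviations were not above 0.1 throughout. They ran from -0.028 to 0.04 for units and from -0.149 to 0.23 for infusion libraries. dDAVP libraries 1, 2 and 3 (r = 0.19, 0.23 and 0.087) were each closest to the saline library of the same number, and library 4 (r = -0.149) was not. The count of calls with a block by this number is given below.

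The members and all gene lists were chosen with earlier results of these data known. The text names every member, the 2 most abundant genes at most of each pathway list, the expressed neighbours, and the 2 most similar genes of each member. Mthfd2l, Aurkb, Gnai3, Myc, Znrf3, Asf1b, Xiap, Ube2l3, Npm3 and Ctsh were named after their values were seen. Start regions and gene positions are from RefSeq (GRCm38.p6).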

Additional observations from a re-analysis of the deposited data

Results flagged for a closer look

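Of 32 groups of 4 values of the members that were screened, 2 had a value far from the other 3, and chance alone gives such a value in about 1 in 20 groups. S100a14 had 11.65 TPM in WT unit 3, and 15.11 to 15.5 TPM in the other 3 WT units. Gnb4 had 55.92 TPM in dDAVP library 3, while its 3 companions with dDAVP lay between 29.18 and 32.5 TPM.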

How the results depend on the processing

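Alternatives changed the pseudocount, the minimum TPM, the scaling, the way libraries were combined, or left out 1 replicate. For MT against WT the count of called genes was 0 except with all 24 libraries and an estimated correlation of 0.229 within units, which called 1 gene (Anp32a, selected on this contrast), and with 1 unit left out, which gave 0 to 5: 5 without MT unit 4, 2 without WT unit 4, and 1 each without WT unit 3 and MT unit 2, none of them a member. With a replicate block by unit number it was also 0. Of the refitted member differences 165 held and 5 moved: Commd1b to 3.52, Ctla2a to -0.37 and Dus4l to -0.35 with the median of a unit's libraries, and Ctla2a to -0.43 both with the mean of log2 values and with all 24 libraries. Directions held throughout, except that Commd1 summed with Commd1b gave 0.01. For dDAVP against saline the 35 calls became 8 with the replicate block by duct number and 7 (without dDAVP library 3) to 47 (without saline library 4) with 1 library left out; the cause was not tested. Signs reversed only for Anp32b, which ran from -0.14 to 0.20 with 1 library left out, and Anp32e, which ran from -0.56 to 0.23 and was 0.006 after rescaling by the median of ratios. Without saline library 4, Ube2e1 was 0.07 and Commd1b was -0.05; without dDAVP library 4 Commd1b was -0.21; without dDAVP library 3 Gnb4 was 0.31, and without saline library 2 it was 0.29; Commd1 was 0.15 without saline library 3. The 6 members' limma adjusted p-values stayed between 0.397 and 0.998. TPM carry no depth, so counting error is unknown.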
